A study of Mus musculus with 20 samples.

Results

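Adenylyl cyclases make cyclic AMP (cAMP), and protein kinase A (PKA) and the Epac proteins carry its signal onward. The genes described here are 6 adenylyl cyclases (Adcy1, Adcy3, Adcy5, Adcy6, Adcy8 and Adcy9), 2 PKA subunits (Prkaca, Prkar1a) and 2 Epac genes (Rapgef3, Rapgef4). They were chosen by symbol, with earlier results of these data known, and all 10 were found among the 26211 genes of the table. RNA-seq had been run on pancreatic islets, the hormone-secreting part of the pancreas, in 10 libraries from mice labelled P2Y14-knockout and 10 from mice labelled wildtype. All 20 libraries carry the strain label C57BL/6 x 129S6, and all islets were picked by hand and kept overnight in culture with serum before RNA was taken. The labels give neither the age or sex of the mice, nor the kind of P2ry14 allele, nor whether libraries came from separate animals, and p-values therefore measure the spread between these libraries, which may be technical.

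In beta cells, cAMP is made from ATP by membrane adenylyl cyclases, which the G protein Gs stimulates and Gi proteins inhibit. The incretin hormones GLP-1 and GIP raise it through Gs-coupled receptors and amplify insulin release when glucose is high. cAMP frees the catalytic subunits of PKA from their regulatory subunits, and it opens the Epac exchange factors, which load Rap GTPases and act on insulin granules. P2Y14, encoded by P2ry14, is known to couple to Gi, and the comparison asks whether islets labelled as knockout for it differ in the transcripts of this machinery.

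Values below are normalized read counts, as deposited by the authors, who had scaled the reads of every gene by the library's size factor. Depth ran from 34520628 to 199847246 reads over genes. P2ry14 (ENSMUSG00000036381) was at 51.2 ± 31.4 in the knockout group against 151 ± 67.4 in the wild-type group (SD, n = 10 each), with ranges of 0 to 114 and 79.7 to 262 that overlapped (permutation test, two-sided p = 1.6e-04). Every one of the 10 knockout libraries was below the wild-type mean, and 9 of them still held P2ry14 reads. The log2 fold change did not pass in the fit over all genes (limma adjusted p = 0.244), and it passed by DESeq2 (adjusted p = 0.014) and when knockout replicate 5, the library at 0, was left out (adjusted p = 0.028). The P2ry14 gene is nested in Med12l, which runs the other way, so reads of the 2 cannot be told apart where they overlap, and the deleted stretch is not named in the labels. Of the islet markers, all 10 beta, 7 alpha and 6 delta and PP cell genes listed were present in every library. All marker sums in the text add normalized read counts without weights, so they mostly follow the genes of a list with the most reads. The alpha marker sum was lower in the knockout group (1159710 ± 439601 against 1614950 ± 337902, SD, n = 10 each, ratio 0.718), with a knockout median of 1106580 below the lowest wild-type library at 1193310. The delta and PP marker sum also had a knockout median, 221636, below the lowest wild-type library, at 256110. Its ratio of means was 0.818, with knockout replicates 8 and 9, at 577034 and 630126, above the highest wild-type library at 561573. For beta markers the ratio of means was 1.12. The part of these differences in makeup in any comparison of the genotypes below was not tested. Genes of the enzyme-making acinar cells held 22.4 ± 8.97% of reads in the knockout group against 21.3 ± 8.84% in the wild-type group (SD, n = 10 each; permutation test, two-sided p = 0.785). Macrophage, endothelial, mesenchymal, duct and Schwann cell markers were also present in both groups, so the levels below are those of the whole islet preparation. In bulk islets, fewer cells of a type and less RNA per cell cannot be told apart.

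The order of the members by level was set per kb of exon, so that long and short genes could be compared. Prkar1a, which encodes the RI alpha regulatory subunit of PKA, was highest, at a normalized read count per kb of 7086 ± 783 in the knockout group against 7517 ± 1222 in the wild-type group (SD, n = 10 each). Rapgef4, which encodes Epac2, followed at 1315 ± 197 and 1271 ± 306 per kb (SD, n = 10 each). Prkaca, which encodes the C alpha catalytic subunit of PKA, was at 1130 ± 90.1 and 1233 ± 223 per kb. Rapgef4 and Prkaca differed by less than the spread over libraries, with Rapgef4 the higher in 14 of 20 libraries. Adcy9, a cyclase known for its weak response to forskolin, was the highest cyclase, at 496 ± 90.8 and 587 ± 173 per kb. Rapgef3, which encodes Epac1, was at 335 ± 105 and 334 ± 85.9 per kb, and the calcium-inhibited cyclase gene Adcy6 at 317 ± 76.8 and 329 ± 39.2. This pair did not differ beyond its spread either, with Rapgef3 the higher in 10 of 20 libraries.

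Below these stood Adcy3, a cyclase best known from olfactory neurons, at 138 ± 29.0 per kb in knockout and 127 ± 28.4 in wild-type. Adcy5, the near relative of Adcy6, was at 24.4 ± 8.04 and 18.4 ± 9.78 per kb. Adcy1 and Adcy8, which encode cyclases that calcium and calmodulin stimulate, were the lowest members, Adcy1 at 11.2 ± 7.70 and 12.2 ± 5.56 per kb and Adcy8 at 2.07 ± 1.78 and 1.20 ± 1.09 per kb. Adcy5 was above Adcy1 in 17 of 20 libraries, and Adcy1 above Adcy8 in 20 of 20. Adcy8 had 0 reads in 6 libraries, 3 of each genotype, which allows a normalized count of up to 1.40 to 5.61, for counting error only. Strand is not kept by the kit used, and exons of Adcy3 share 1380 of their 6246 bases with those of Cenpo on the other strand, so reads of the 2 genes cannot be told apart there. Shorter exon overlaps of this kind exist for Adcy6 (605 bases, with Gm29331), Rapgef3 (351 with Rapgef3os2, 236 with Rapgef3os1) and Rapgef4 (337 with Rapgef4os2).

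**Figure D1:**
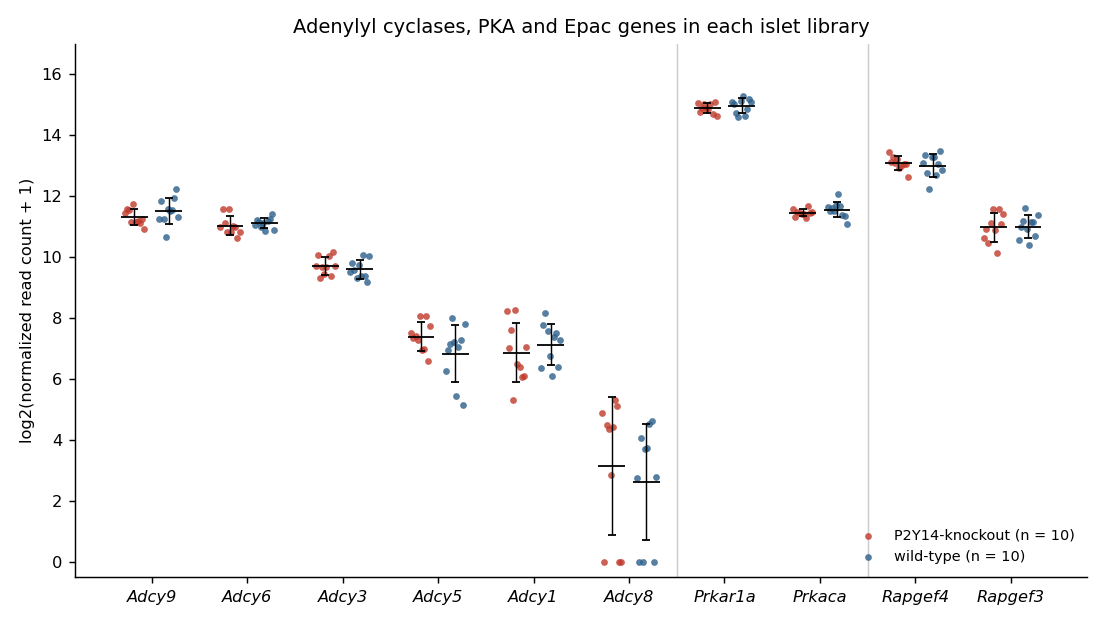
Level of each member in each library, as log2 of the normalized read count plus 1 on the vertical axis. Red points are knockout and blue points wild-type libraries (10 each), with the mean as a bar and the SD as whiskers. The 2 colours overlap for all 10 genes, and the points at 0 for Adcy8 are the 6 libraries without a read.

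Within each family the same isoform led in all 20 libraries. Of the per-kb signal of the 10 cyclase genes, Adcy9 took 43.5 ± 3.85% in the knockout group against 48.0 ± 8.22% in the wild-type group (SD, n = 10 each). Adcy6 took 27.6 ± 3.29% and 27.6 ± 2.50%, and Adcy3 12.3 ± 3.14% and 10.7 ± 2.42% (SD, n = 10 each). Adcy4, a cyclase not among the members and known from endothelium, took 9.51 ± 4.03% and 6.91 ± 3.36%, and Adcy7, the next, 3.07 ± 1.37% and 2.84 ± 1.51%. Adcy9 and Adcy6 together thus made up most of the cyclase signal of these islets in both genotypes.

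Among the PKA regulatory subunits, Prkar1a took 74.4 ± 2.90% of the per-kb signal in the knockout group against 72.4 ± 2.81% in the wild-type group (SD, n = 10 each). Prkar1b, the RI beta subunit best known from brain, took 21.8 ± 3.48% and 23.7 ± 3.11%, while the type II subunits Prkar2b and Prkar2a took 3.07 ± 0.78% and 0.72 ± 0.15% in knockout. Of the catalytic subunits, Prkacb was above the member Prkaca in 20 of 20 libraries, and Prkaca held 27.9 ± 6.17% in knockout and 27.9 ± 5.76% in wild-type. Of the Epac pair, Rapgef4 held 79.6 ± 6.39% and 78.2 ± 8.64%. These shares are given without a test, and they depend on the exon lengths of the annotation used.

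**Figure D2:**
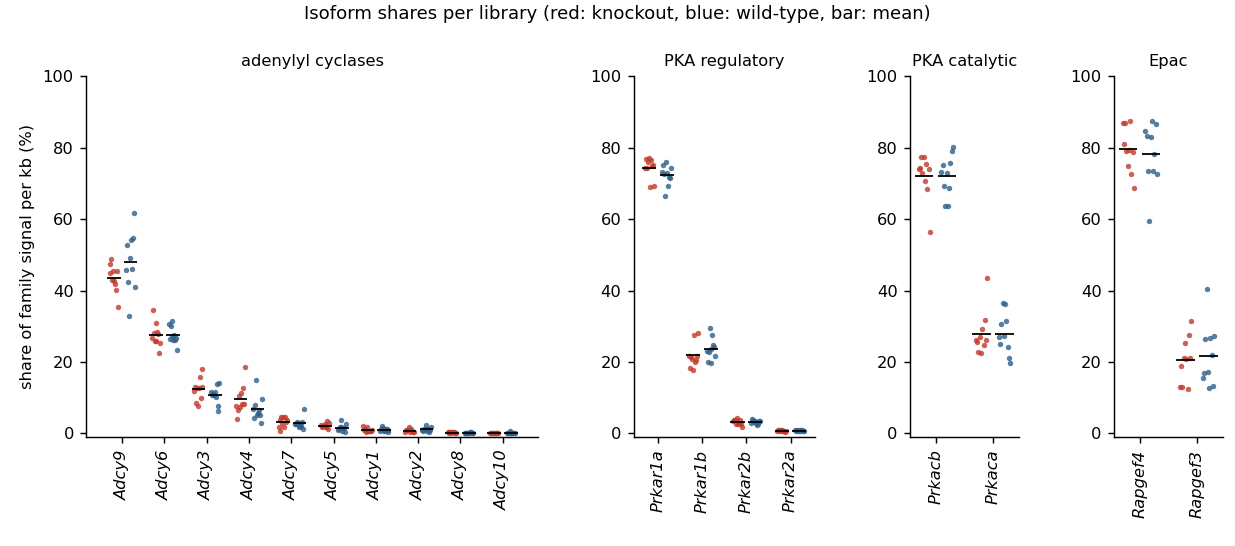
Share of each isoform in the summed per-kb signal of its family, in percent, for each library (red: knockout, blue: wild-type, bar: mean). Adcy9, Prkar1a, Prkacb and Rapgef4 are the top isoform of their family in 20 of 20 libraries.

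No member passed the test between the genotypes. Of the 10 members, 0 had an adjusted p under 0.05 by limma, edgeR or DESeq2, and 0 had an unadjusted p under 0.05 by any of these tools, beside 0.28% of the 17482 genes tested that were called by limma and 8.94% with an unadjusted p under 0.05. The median log2 fold change of the members was −0.05, with 4 above and 6 below 0, and that over all genes tested was −0.0022. Knockout and wild-type ranges overlapped in 10 of 10 members, and groups that do not overlap were found in 0.0343% of the genes tested. For 7 members the 95% interval of the log2 fold change lay between −0.53 and 0.40, that is inside a doubling or halving in both directions. These were Adcy3, Adcy6, Adcy9, Prkaca, Prkar1a, Rapgef3 and Rapgef4.

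Among the cyclases, Adcy5 had the smallest p. Its normalized read count ran from 94.4 over a median of 165 to 266 in knockout, and from 34.5 over a median of 137 to 253 in wild-type. The 2 lowest libraries were wild-type libraries 19 and 16, at 34.5 and 42.6, and the highest values of both groups were close. The log2 fold change was 0.56 (limma adjusted p = 0.623, SE 0.31), with a 95% interval from −0.09 to 1.22 and 7 of 10 knockout libraries above the wild-type mean. It ran from 0.38 without wild-type library 19 to 0.69 without wild-type library 14. The mesenchymal and smooth muscle marker sum, which moved with Adcy5 over libraries as given below, had a median of 14496 over the knockout and of 15085 over the wild-type libraries, and its lowest value, 3275, was that of wild-type library 19. The alpha marker sum, with a ratio of means of 0.718, ran against Adcy5 over libraries and passed by Spearman only. Its r was −0.53 (permutation p = 0.016, adjusted over the 90 relations given below 0.067) and its rho −0.65 (permutation p = 0.0022, adjusted 0.022). Within knockout r was −0.59, within wild-type −0.47 and without the 2 farthest libraries −0.55. The part of either sum in the Adcy5 values was not tested.

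Adcy9 ran from 1924 over a median of 2380 to 3428 in knockout and from 1621 over a median of 2960 to 4799 in wild-type. Its wild-type values spread wider at both ends than its knockout values. The log2 fold change was −0.21 (limma adjusted p = 0.716, SE 0.15, 95% interval −0.53 to 0.11), with 8 of 10 knockout libraries below the wild-type mean. The macrophage marker sum, against which Adcy9 ran over libraries as given below, had a median of 2732 over the knockout and of 2051 over the wild-type libraries (ratio of means 1.19), and its part in the Adcy9 values was not tested. Adcy6 had 2147 ± 521 in the knockout group against 2231 ± 266 in the wild-type group (SD, n = 10 each), a log2 fold change of −0.08 (95% interval −0.32 to 0.16, limma adjusted p = 0.867). The 2 highest Adcy6 libraries were knockout replicates 2 and 5. Adcy3 had 859 ± 181 and 793 ± 178, a log2 fold change of 0.12 (95% interval −0.17 to 0.40, limma adjusted p = 0.826). For both genes the 2 groups overlapped over most of their range.

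Adcy1 and Adcy8 were low and uneven. Adcy1 ran from 38.5 over a median of 109 to 306 in knockout and from 68.1 over a median of 160 to 287 in wild-type. Knockout replicates 1 and 5 were the 2 highest of the 20 libraries and knockout replicate 4 the lowest. Its log2 fold change was −0.27 (95% interval −1.01 to 0.46, limma adjusted p = 0.846), with −0.10 once knockout replicate 4 was left out, −0.43 once replicate 1 or 5 was, and −0.12 by edgeR and DESeq2. Adcy8 ran from 0 over a median of 20.1 to 38.7 in knockout and from 0 over a median of 8.93 to 23.8 in wild-type, on at most 50 reads a library. Its log2 fold change was 0.52 (95% interval −1.32 to 2.37, limma adjusted p = 0.890), 0.35 with a pseudocount of 10 and 0.80 by edgeR. By size factor, the libraries without a read were not the shallowest: wild-type library 12, where 0 reads allow at most 1.40, was at 0, and knockout replicate 6, where they would allow 7.71, had 8 reads. The interval leaves room for more than a doubling in either direction.

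The PKA subunits were the steadiest members. Prkaca ran from 2508 over a median of 2791 to 3258 in knockout and from 2194 over a median of 3062 to 4282 in wild-type. Wild-type library 16 was the highest and wild-type library 20 the lowest of all 20, so the knockout range lay inside the wild-type range. The log2 fold change of Prkaca was −0.11 (limma adjusted p = 0.764, SE 0.09, 95% interval −0.31 to 0.09), with 8 of 10 knockout libraries below the wild-type mean. Prkar1a ran from 25346 over a median of 30118 to 35121 in knockout and from 24985 over a median of 34273 to 39901 in wild-type. Its log2 fold change was −0.08 (limma adjusted p = 0.852, SE 0.10, 95% interval −0.28 to 0.13). The SD of the log2 value within groups was 0.20 for Prkaca and 0.21 for Prkar1a, against a median of 0.44 over all genes tested, and 4.36% and 5.47% of those genes had a smaller one.

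Neither Epac gene differed beyond its spread. Rapgef4 ran from 6302 over a median of 8681 to 11180 in knockout and from 4869 over a median of 8630 to 11404 in wild-type. The lowest library was wild-type library 14, and the groups lay over each other. The log2 fold change was 0.08 (limma adjusted p = 0.897, SE 0.14, 95% interval −0.21 to 0.36), and its sign changed without wild-type library 14. Rapgef3 ran from 1117 over a median of 2077 to 3082 in knockout and from 1362 over a median of 2139 to 3147 in wild-type. Its log2 fold change was −0.02 (limma adjusted p = 0.985, SE 0.18, 95% interval −0.40 to 0.36), with 5 of 10 knockout libraries above the wild-type mean, and its sign changed by edgeR and DESeq2. Its sign also changed when any of knockout replicates 1, 3 and 7, or any of wild-type libraries 13, 14 and 20, was left out.

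**Figure D3:**
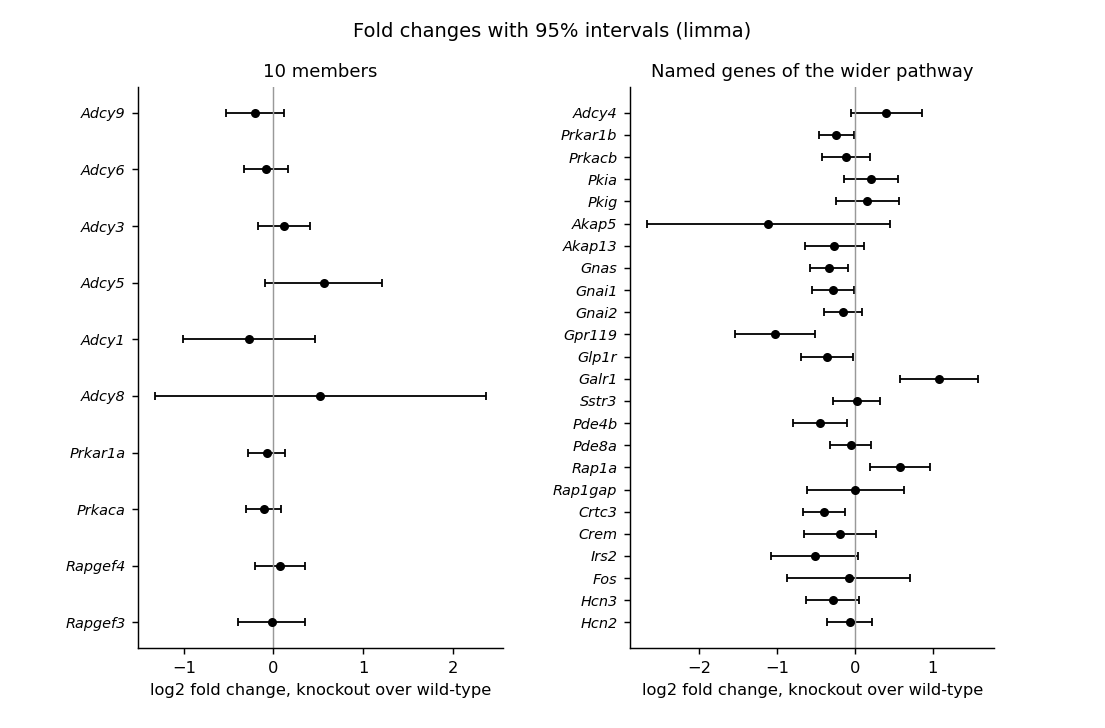
Log2 fold change of knockout over wild-type (horizontal axis) with its 95% interval from limma, for the 10 members on the left and for named genes of the wider pathway on the right. All 10 member intervals include 0; on the right, the intervals of Gpr119 and Galr1 lie farthest from 0, and neither passed the adjusted p.

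Around the members, 96 other genes of cAMP signalling were listed by role, and 89 of them reached the mean of 10 needed for the test. Of these 89, 0 passed at an adjusted p under 0.05 by limma and 0 by edgeR, while DESeq2 called 2, Galr1 and Gpr119. Over all 17482 genes tested, limma called 0.28%, edgeR 0.246% and DESeq2 0.784%. By limma, 15 of the 89 had an unadjusted p under 0.05, 13 lower and 2 higher, which is 16.9% beside 8.94% of all genes tested. The median log2 fold change was −0.09, with 59 genes below 0 and 30 above, and 50.4% of all genes tested were below 0.

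The receptors upstream of the cyclases held the 2 smallest p-values. Galr1, a Gi-coupled receptor for the neuropeptide galanin, had 230 ± 68.4 in the knockout group against 109 ± 34.7 in the wild-type group (SD, n = 10 each). The 2 groups overlapped, since knockout replicate values reached down to 84.8 and wild-type values up to 142. Its log2 fold change was 1.08 (limma adjusted p = 0.057, SE 0.24), and it passed without knockout replicate 6 (adjusted p = 0.0056), with the acinar share as a covariate (adjusted p = 0.024) and by DESeq2 (adjusted p = 0.0011). Gpr119, a Gs-coupled receptor for lipid amides, had 99.6 ± 32.0 in knockout and 218 ± 116 in wild-type, with a log2 fold change of −1.02 (limma adjusted p = 0.0989, SE 0.25). It passed by DESeq2 (adjusted p = 0.0052) and without wild-type library 13 (adjusted p = 0.033). Glp1r, the incretin receptor with the highest level per kb among the receptors that raise cAMP, had a log2 fold change of −0.35 (limma adjusted p = 0.537). Sstr3, a somatostatin receptor, was at 0.02 (limma adjusted p = 0.977).

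Gnas, which encodes the stimulatory G protein alpha subunit, had 256732 ± 35426 in the knockout group against 321472 ± 41133 in the wild-type group (SD, n = 10 each). Its log2 fold change of −0.33 (SE 0.12) did not pass (limma adjusted p = 0.398). All 5 inhibitory alpha subunits had negative values without passing, from −0.05 to −0.32, among them Gnai1 at −0.28 and Gnai2, the highest per kb, at −0.15. Among the other cyclases Adcy4 had 491 ± 182 against 371 ± 138 and a log2 fold change of 0.41 (limma adjusted p = 0.606, SE 0.22). Summed endothelial markers, from the cells in which Adcy4 is best known, were at 31861 ± 9538 and 31237 ± 5948 (SD, n = 10 each); their part in the Adcy4 values was not tested.

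Downstream, the other PKA subunits had small negative values in 4 of 4, with Prkar1b at −0.24 (limma adjusted p = 0.546) and Prkacb at −0.11. The 3 PKA inhibitor peptide genes had positive values, with Pkia at 0.21 and Pkig at 0.16. Of 11 anchoring proteins, which tether PKA to its targets, 7 had negative values, with the highest per kb, Akap13, at −0.26. Akap5, on a mean of 13.5 with 4 libraries at 0, was at −1.11 (SE 0.75). Its value ran from −1.32 to −0.46 over the alternatives that kept all libraries. Among 14 phosphodiesterases, which break cAMP down, Pde4b had the smallest p (log2 fold change −0.45, limma adjusted p = 0.425), and Pde8a, the highest per kb, was at −0.05. None of these passed the test.

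Of the Epac partners, Rap1a, a Rap GTPase, had 124 ± 24.5 in knockout and 85.2 ± 25.9 in wild-type, with a log2 fold change of 0.58 (limma adjusted p = 0.318, SE 0.19). Rap1b, its close relative, named after its value was seen, was at 0.02. Rap1gap, which turns Rap off, was high at 26136 ± 13499 and 25168 ± 11186, with a log2 fold change of 0.005 whose sign changed with TMM factors and the acinar covariate. Of the CREB factors and coactivators, through which cAMP acts on transcription, 7 of 8 had negative values, with Crtc3 at −0.40 (limma adjusted p = 0.318, SE 0.13) and Crem at −0.19. The 12 CREB target genes were split, 6 above and 6 below 0, with Irs2 at −0.52 (limma adjusted p = 0.590) and Fos at −0.08. Of the cAMP-gated channels, Hcn3 was at −0.29 and Hcn2 at −0.07, without passing.

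Several members varied together over the 20 libraries. Among the 45 pairs of members, 6 had a Pearson correlation of log2 values past an adjusted permutation p of 0.05 (100000 permutations, adjusted over the 45). Rapgef4 and Prkar1a rose and fell together (Pearson r = 0.71, permutation p = 2.0e-04, adjusted 0.0052; Spearman rho = 0.67, permutation p = 0.0015, adjusted 0.026). Within knockout r was 0.53 and within wild-type 0.85, and r was 0.59 without the 2 libraries farthest from the median. Rapgef4 and Adcy9 did so as well (r = 0.73, permutation p = 2.3e-04, adjusted 0.0052; rho = 0.64, permutation p = 0.0030, adjusted 0.027), with 0.77 within knockout, 0.82 within wild-type and 0.54 without the 2 farthest libraries. Adcy6 and Adcy9, the 2 leading cyclases, had r = 0.66 (permutation p = 0.0014, adjusted 0.016; rho = 0.77, permutation p = 1.7e-04, adjusted 0.0076), with 0.81 and 0.70 within the genotypes and 0.69 without the 2 farthest libraries.

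Adcy9 and Prkar1a, which each moved with Rapgef4, did not pass with each other (r = 0.42, permutation p = 0.065, adjusted 0.245; rho = 0.39, permutation p = 0.089, adjusted 0.402; 0.18 within knockout, 0.47 within wild-type and 0.16 without the 2 farthest libraries). A further pair was Adcy5 with Rapgef3 (r = 0.63, permutation p = 0.0024, adjusted 0.021; rho = 0.66, permutation p = 0.0023, adjusted 0.026), with 0.56 within knockout, 0.89 within wild-type and 0.63 without the 2 farthest libraries. Both ran against Prkar1a. For Rapgef3 and Prkar1a r was −0.61 (permutation p = 0.0038, adjusted 0.029; rho = −0.65, permutation p = 0.0023, adjusted 0.026), and −0.54 and −0.77 within the genotypes, and −0.56 without the 2 farthest libraries. For Adcy5 and Prkar1a r was −0.66 (permutation p = 9.8e-04, adjusted 0.015; −0.64 and −0.66 within the genotypes, and −0.61 without the 2 farthest libraries), and rho was −0.57 (permutation p = 0.0099, adjusted 0.071), which did not pass. The 2 Epac genes, Rapgef3 and Rapgef4, had r = −0.53 (permutation p = 0.016, adjusted 0.106; rho = −0.56, adjusted 0.071), which did not pass either. Libraries share depth and tissue makeup, so members can move together through both, and this was not tested apart.

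**Figure D4:**
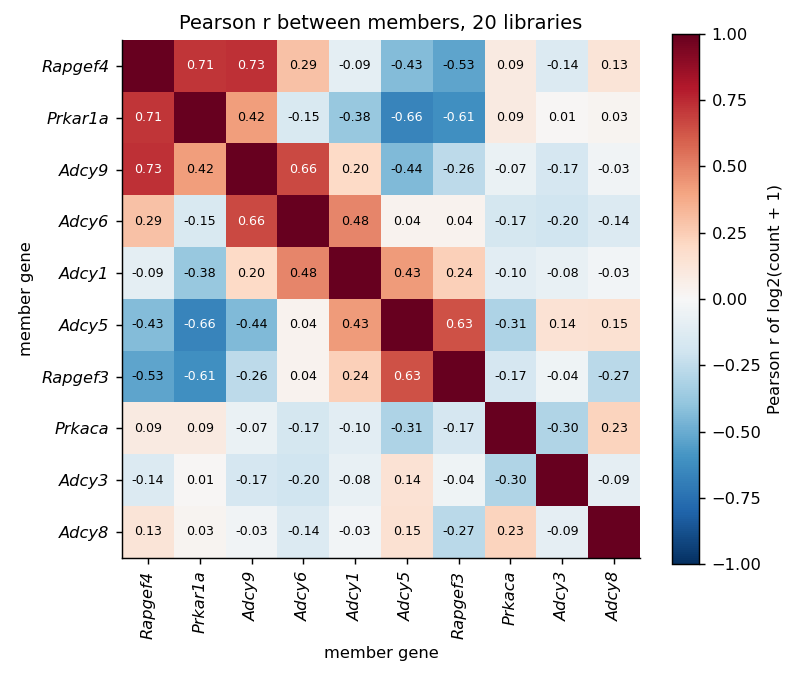
Pearson correlation of log2(normalized read count + 1) between the members over 20 libraries, with r printed in each cell, red for positive and blue for negative values. Rapgef4 is positive with both Prkar1a and Adcy9 at the top left, while Prkar1a and Adcy9 (r = 0.42) did not pass, and Adcy5 and Rapgef3 are positive with each other and negative with Prkar1a.

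The promoters of 5 of the 6 genes in these pairs are shown to let their start regions be compared, and that of Adcy6, the other, is not shown since it was not in the table used. RefSeq windows on GRCm38.p6, from 250 bases before to 50 after a start, were at hand for 8 of the 10 members. The motif searched was the cAMP response element, TGACGTCA, to which CREB binds, and its half-site TGACG, on both strands; the full element holds the half-site on each strand. Capitals mark these matches, and all sequences read 5′ to 3′ along the gene. Rapgef4 is the member that rose and fell with both Prkar1a and Adcy9, and Adcy9 did so with Adcy6 as well. Rapgef3 and Adcy5 are a further pair. The 5 genes shown were chosen after their values were seen. Prkar1a has 6 windows, and the window printed holds the full element.
Prkar1a, chr11:109650699-109650998, plus strand: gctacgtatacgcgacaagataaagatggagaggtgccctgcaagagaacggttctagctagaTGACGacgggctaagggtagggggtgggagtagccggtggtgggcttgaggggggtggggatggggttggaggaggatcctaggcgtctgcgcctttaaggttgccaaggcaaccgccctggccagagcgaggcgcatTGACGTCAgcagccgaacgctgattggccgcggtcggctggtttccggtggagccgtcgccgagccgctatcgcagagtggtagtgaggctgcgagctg
Rapgef4, chr2:71980965-71981264, plus strand: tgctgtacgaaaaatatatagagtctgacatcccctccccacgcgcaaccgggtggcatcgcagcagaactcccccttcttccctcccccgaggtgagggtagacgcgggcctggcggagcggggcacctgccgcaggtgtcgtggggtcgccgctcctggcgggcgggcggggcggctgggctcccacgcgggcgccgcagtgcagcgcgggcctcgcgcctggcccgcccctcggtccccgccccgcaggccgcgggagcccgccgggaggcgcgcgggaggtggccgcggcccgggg
Adcy9, chr16:4420449-4420748, minus strand: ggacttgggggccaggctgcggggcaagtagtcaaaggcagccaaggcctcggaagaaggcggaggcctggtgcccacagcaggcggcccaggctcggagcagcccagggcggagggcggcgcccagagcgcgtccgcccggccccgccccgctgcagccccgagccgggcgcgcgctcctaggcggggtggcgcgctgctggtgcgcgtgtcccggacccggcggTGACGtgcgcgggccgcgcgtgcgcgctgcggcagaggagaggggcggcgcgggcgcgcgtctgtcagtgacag
Rapgef3, chr15:97767617-97767916, minus strand: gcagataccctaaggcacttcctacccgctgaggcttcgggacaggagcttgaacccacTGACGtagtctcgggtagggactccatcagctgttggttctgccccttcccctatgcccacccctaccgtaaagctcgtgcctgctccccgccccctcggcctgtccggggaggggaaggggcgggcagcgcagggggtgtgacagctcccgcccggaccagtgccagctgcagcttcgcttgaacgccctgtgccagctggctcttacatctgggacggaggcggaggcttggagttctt
Adcy5, chr16:35154614-35154913, plus strand: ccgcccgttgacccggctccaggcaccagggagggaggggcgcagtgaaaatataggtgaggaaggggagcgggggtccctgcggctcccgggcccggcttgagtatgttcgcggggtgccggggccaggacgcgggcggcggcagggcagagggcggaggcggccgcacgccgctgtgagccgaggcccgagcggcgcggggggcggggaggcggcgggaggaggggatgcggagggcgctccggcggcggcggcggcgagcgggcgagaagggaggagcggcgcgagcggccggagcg

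In the Prkar1a window the full element stood at bases −49 to −42 from the start, and a further half-site at −187 to −183. An overlapping Prkar1a window holds the same element, and of the other 4 windows 1 holds a half-site. The full element is in 1.79% of all 32851 promoter windows of this length. Adcy9 had a half-site at −24 to −20 and Rapgef3 at −191 to −187, while these letters are not in the windows of Rapgef4 and Adcy5. Half-sites are in 20.8% of all windows, and 23.1% of all genes have at least 1 window with one. Among the members this was so for 4 of 8, Prkaca being the other one, as a description of these windows, of which Prkar1a has 6 of 15. G and C made up 76.7% of the Rapgef4 window, 78.3% of that of Adcy9 and 79.0% of that of Adcy5, against 62.7% for Prkar1a and 65.0% for Rapgef3.

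Rapgef4 and Prkar1a were lower in libraries with more acinar RNA. Over 20 libraries the log2 level of Rapgef4 had r = −0.70 with the acinar percent (permutation p = 4.7e-04, adjusted over the 10 members 0.0047; rho = −0.70, permutation p = 8.7e-04, adjusted 0.00805). Within knockout r was −0.65 and within wild-type −0.79, and r was −0.68 without the 2 libraries farthest from the median share, wild-type library 12 and knockout replicate 5. Prkar1a had r = −0.67 (permutation p = 0.0017, adjusted 0.00875; rho = −0.67, permutation p = 0.0016, adjusted 0.00805), −0.63 within knockout, −0.72 within wild-type and −0.80 without the same 2 libraries. Adcy9 had r = −0.51 (permutation p = 0.021, adjusted 0.070; rho = −0.51, adjusted 0.073), which did not pass. The other 7 members had r between −0.14 and 0.19. With the acinar percent as a covariate, 0 of 10 members passed between the genotypes.

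Markers of other cell types moved with the members as well. In 90 relations of the 10 members with 9 other marker sums, computed after the data had been seen, 16 passed an adjusted permutation p of 0.05 by Pearson and 10 by Spearman as well. Rapgef3 was higher where mesenchymal and smooth muscle markers were higher (r = 0.78, permutation p = 7e-05, adjusted 0.0021; rho = 0.79, permutation p = 1.5e-04, adjusted 0.0027). Within knockout this r was 0.75, within wild-type 0.87 and without the 2 farthest libraries 0.79. It also moved with endothelial markers (r = 0.73, permutation p = 3e-04, adjusted 0.0054; rho = 0.81, permutation p = 5e-05, adjusted 0.0015; 0.74 and 0.73 within the genotypes, 0.68 without the 2 farthest libraries). Duct markers gave a like value for Rapgef3 (r = 0.69, permutation p = 9.1e-04, adjusted 0.010; rho = 0.71, permutation p = 6.5e-04, adjusted 0.00975; 0.76 and 0.64 within the genotypes, 0.68 without the 2 farthest libraries), so it moved with 3 of the marker sums. These 3 sums were all high in knockout replicates 8 and 10 and in wild-type library 20. In each of them wild-type library 19 was the lowest wild-type library. The 3 relations of Rapgef3 need therefore not be separate, which was not tested. Epac1 is known as the Epac form of vessels and many other tissues, and Epac2 as that of endocrine cells and brain. Adcy5 had r = 0.74 with the mesenchymal and smooth muscle sum (permutation p = 1.1e-04, adjusted 0.0025; rho = 0.62, permutation p = 0.0044, adjusted 0.036), with 0.44 within knockout, 0.94 within wild-type and 0.59 without the 2 farthest libraries.

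Rapgef4 ran against that sum (r = −0.69, permutation p = 6.2e-04, adjusted 0.0080; rho = −0.70, permutation p = 8.2e-04, adjusted 0.011; −0.41 and −0.84 within the genotypes, −0.53 without the 2 farthest libraries). It ran against the duct sum as well (r = −0.70, permutation p = 5.7e-04, adjusted 0.0080; rho = −0.77, permutation p = 1.5e-04, adjusted 0.0027; −0.74 and −0.76 within the genotypes, −0.61 without the 2 farthest libraries). Prkar1a ran against the mesenchymal and smooth muscle sum too, with r = −0.60 (permutation p = 0.0050, adjusted 0.035) and rho = −0.65 (permutation p = 0.0024, adjusted 0.022). Within knockout this r was −0.44, within wild-type −0.69 and without the 2 farthest libraries −0.45. Adcy9 and Adcy6 were lower where macrophage markers were higher. For Adcy9 r was −0.82 (permutation p = 1e-05, the smallest these permutations can give, adjusted 9.0e-04; rho = −0.93, permutation p = 1e-05, adjusted 9.0e-04), with −0.91 within knockout, −0.85 within wild-type and −0.73 without the 2 farthest libraries. For Adcy6 r was −0.78 (permutation p = 5e-05, adjusted 0.0021; rho = −0.85, permutation p = 3e-05, adjusted 0.00135; −0.86 and −0.58 within the genotypes, −0.84 without the 2 farthest libraries). Adcy6 was also lower where beta cell markers were higher (r = −0.68, permutation p = 0.0011, adjusted 0.011; rho = −0.66, permutation p = 0.0025, adjusted 0.022; −0.86 within knockout, −0.30 within wild-type and −0.71 without the 2 farthest libraries). By Pearson only, Adcy9 also ran against the mesenchymal (r = −0.63), B cell (r = −0.62) and duct (r = −0.61) sums. Without the 2 farthest libraries these were −0.335, −0.39 and −0.42. Of the 4 B cell genes, 2 had a mean under 10. Passing by Pearson only as well were Prkar1a (r = −0.57) and Adcy5 (r = 0.59) with the duct sum, and Rapgef4 (r = −0.57) with the macrophage sum. The macrophage sum of 8 genes ran from 1301 to 4213 in knockout and from 1617 to 3807 in wild-type, with 1 of the 8 at 0 in at least 1 library. The mesenchymal sum of 8 genes ran from 6234 to 31651 and from 3275 to 44763, with none at 0. What makes members and markers move together was not tested.

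**Figure D5:**
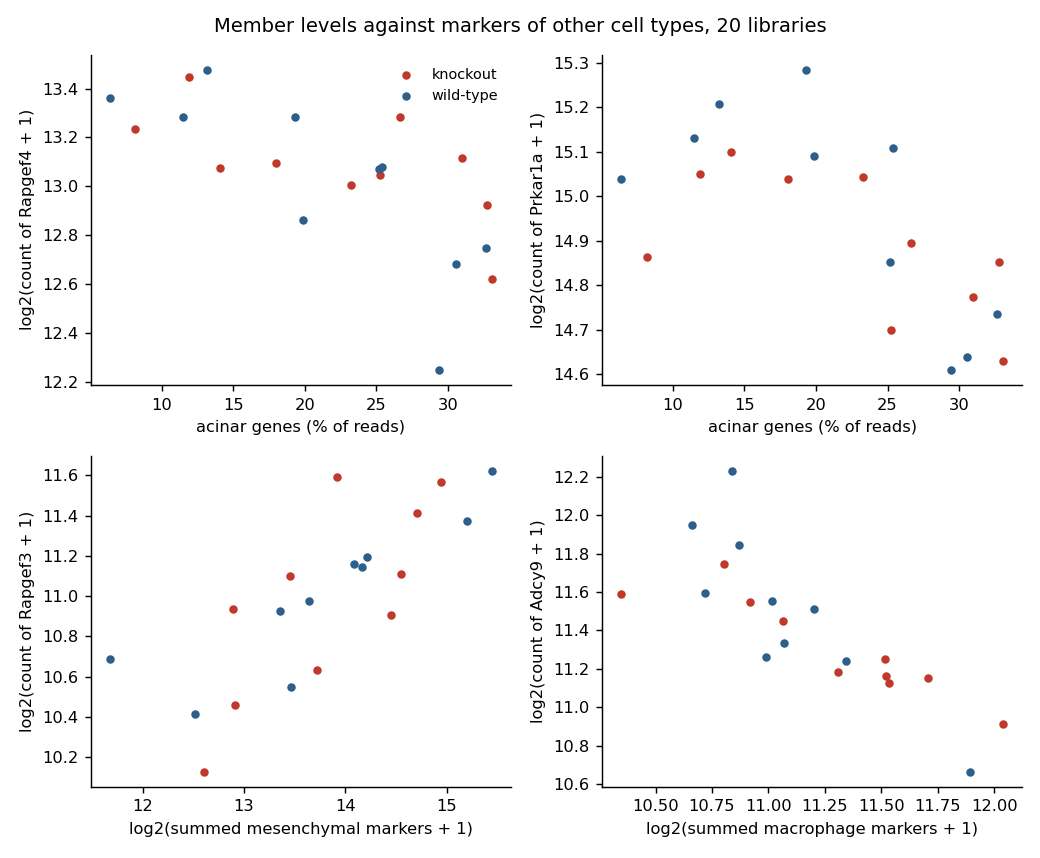
Log2(normalized read count + 1) of 4 members (vertical axes) against acinar genes as a percent of reads (top) or log2 of summed mesenchymal or macrophage markers plus 1 (bottom), 1 point per library, red for knockout and blue for wild-type. Rapgef4 and Prkar1a fall with the acinar share, Rapgef3 rises with the mesenchymal sum and Adcy9 falls with the macrophage sum, and both colours are spread along each course.

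The genes most like each member were sought among the 17482 tested, by the Pearson correlation of log2 values centred on each genotype's mean over the 20 libraries, as a description without a test. For Prkar1a these were Syt4 (0.88), Pcsk1 (0.87) and Cpe (0.86), which encode a synaptotagmin and 2 prohormone-processing enzymes. For Rapgef4 they were the bicarbonate transporter gene Slc4a7 (0.93), the ubiquitin ligase gene Pja2 (0.92) and 9330182L06Rik (0.90). For Adcy9 they were Dnmt3a (0.91), Arfgef3 (0.90) and Herc2 (0.89), and for Adcy6 Abcc10, Kmt2d and Zfp839 (each 0.91). For Prkaca they were Rab3a (0.81), a GTPase gene of secretory vesicles, Snrnp35 (0.77) and Cx3cr1 (0.75). Rapgef3 was most like Grrp1 (0.89), Trim47 (0.86) and Ehd2 (0.85), and Adcy5 most like Zcchc24 (0.86), Sertad2 (0.83) and the sodium channel gene Scn7a (0.82). Adcy1, Adcy3 and Adcy8 had nearest genes at lower values. These were Fam168b (0.71), Furin (0.64) and Smurf1 (0.64) for Adcy1, Gm17383 (0.72), Gm2174 (0.69) and Slc19a1 (0.68) for Adcy3, and Nynrin (0.73) and 2 genes without a symbol for Adcy8. With 17482 genes and 20 libraries, high values arise readily, and depth and tissue makeup are shared by all genes of a library.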

How the data were processed

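The authors deposited a signal for every gene, its read count scaled by DESeq size factors, as the name of the table says. Tools in the submitters' processing notes are DESeq 1.16.0, Cufflinks 1.3.0, Bowtie 0.9.9, TopHat 1.3.3 and FastQC, with build mm9. How reads were counted, and on which annotation, were not given in the sources used here. Dividing each library's values by its smallest step returned whole reads for 100% of non-zero values within 0.05 reads. Wild-type columns are numbered 11 to 20 and the labels 1 to 10, so they carry no replicate number.

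Members, lists, tests and alternatives were chosen with earlier results of these data known. Names and exon lengths came from GENCODE M21 (GRCm38, not mm9), which named 23950 of 26211 genes. Genotypes were compared with limma (version 3.58.1, R 4.3.3, lmFit, eBayes with trend) on log2(value + 1), for the 17482 genes with a mean of at least 10, genotype as the only term, Benjamini-Hochberg adjusted p under 0.05. The limma fit was tested on simulated counts, drawn for each gene independently. They held no shared tissue makeup, so that test cannot show how the fit behaves where libraries differ in makeup. Changes of low genes can come out smaller or larger on this scale. The log2 fold change of Adcy8 was 0.52 by limma and 0.80 by edgeR, and that of P2ry14 was −1.97 by limma and −1.56 by DESeq2. The text names all members, P2ry14, the smallest p and the highest level per kb of each pathway role, and the 3 genes most like each member, or the first of them. Other genes were chosen after their values were seen. edgeR 4.0.16 and DESeq2 1.42.0 on recovered reads, pseudocounts of 0.5 and 10, other filters, TMM, quantile normalization, an acinar covariate and each library left out were the alternatives. Permutation tests used 100000 resamples, two-sided (Python 3.11.15, numpy 2.4.6, pandas 2.3.3). All 90 same-group pairs of libraries differed beyond sampling noise (chi-square per degree of freedom of at least 76.7). Intervals of 0 reads cover counting error only.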

Additional observations from a re-analysis of the deposited data

Results flagged for a closer look

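None of the 10 members had a library set apart from the others of its genotype by the gap test used (gap to the nearest library over the group's range, at its 95% critical value for 10 samples). Of 72 groups tested over members, P2ry14, named pathway genes and the acinar share, 8 had such a library, all in pathway genes, where chance flags about 1 in 20. Fos stood at 15630 in knockout replicate 8 (next 8952) and at 23689 in wild-type library 20 (next 11788). Gnai2 was at 15510 in knockout replicate 10 (next 10857) and Gnas at 423560 in wild-type library 16 (next 341527). Gpr119 was at 497 (next 300) and Irs2 at 1264 (next 722), both in wild-type library 19. Pde8a was low in knockout replicate 6, at 1486 (next 2121), and Prkacb, the main PKA catalytic gene by level per kb, was low in knockout replicate 10, at 12946 (next 23167).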

How the results depend on the processing

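The count of members past the threshold was 0 in every alternative run and with each library left out. Without wild-type library 14, Adcy5 and Adcy9 had an unadjusted p under 0.05 (2 members), and without wild-type library 20 Adcy5 did (1 member). With a mean of at least 100, Adcy8 was not tested. The count of other pathway genes past the threshold, 0 by limma, was 2 by DESeq2 and 1 with the acinar covariate, and ran from 0 to 1 with a library left out. The count over all genes, 49, was 29 with a mean of at least 100 and 137 by DESeq2, and ran from 27 to 73 with a library left out. Signs near 0 changed: Rapgef3 was 0.0035 by edgeR and 0.0063 by DESeq2, and Rap1gap −0.0096 with TMM factors and −0.079 with the acinar covariate; the correlation of Adcy3 with the acinar share was −0.015 after TMM factors. With a library left out, log2 fold changes ran from −0.087 to 0.076 for Rapgef3, −0.0091 to 0.13 for Rapgef4, −0.25 to 0.15 for Fos, −0.13 to 0.011 for Pde8a, −0.12 to 0.12 for Rap1gap and −0.048 to 0.10 for Sstr3. The difference in acinar share, 1.07 percentage points, ran from −0.60 to 2.65. The cause of these changes was not tested. No paired analysis was possible because the wild-type columns carry none of the labels' replicate numbers. Adcy8, with at most 50 reads a library and an SD of log2 values within groups of 2.10, had the widest interval of the members.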
